A study of Mus musculus with 6 samples.

Results

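The tubulin genes described here were 10 genes of the mouse heart, 4 of α-tubulin (Tuba1a, Tuba1b, Tuba1c and Tuba4a) and 6 of β-tubulin (Tubb2a, Tubb2b, Tubb3, Tubb4b, Tubb5 and Tubb6). They were chosen by gene name and made up 26 of 149132 transcripts and 10 of 57180 genes in the table of estimated counts. RNA was sequenced from 6 hearts, each of a male mouse of the inbred strain C57BL/6N aged 6 to 8 weeks and weighing 20 to 25 g. In the HS group, 3 mice were heated to a core temperature of 42 °C in a chamber set to 40 °C with a humidity of 60 to 65%, which is the study's model of heat stroke. In the sham group, 3 mice stayed at 22 to 25 °C and the same humidity. Both groups were kept without food and water, so fasting and thirst are shared. No transgene or drug was used in these 6 mice, and how long after 42 °C the hearts were taken is not stated in the text used here. The account of RNA extraction speaks of cell lines, whereas the tissue label is heart. Transcripts of ventricular cardiomyocytes were abundant in all 6 libraries, as given with the marker values near the end.

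Microtubules are hollow filaments built from dimers of 1 α- and 1 β-tubulin, and mammals hold several genes for each. The copies differ mainly in the acidic tail at the end of the protein, where enzymes remove or restore a tyrosine and add glutamates. In cardiomyocytes, microtubules with the tyrosine removed attach to the sarcomere and resist its shortening. Cells also control the stability of tubulin mRNA: the first residues of a tubulin still on the ribosome are recognised by TTC5, which leads to decay of that mRNA when free tubulin is abundant. Tubb3 (class III β-tubulin) is the neuronal β-tubulin and is widely used as a marker of neurons.

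The reading frames are shown at their ends, since the start encodes the residues that TTC5 recognises and the end decides whether the protein is made with a tyrosine. The first 30 bases of the reading frame follow, 5′ to 3′, from the GENCODE vM21 transcripts (build GRCm38, equal to mm10), with the first 12 bases, start codon included, in capitals.
Tuba1a: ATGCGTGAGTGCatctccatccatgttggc
Tuba1b: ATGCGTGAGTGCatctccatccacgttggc
Tuba1c: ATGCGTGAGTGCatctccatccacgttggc
Tuba4a: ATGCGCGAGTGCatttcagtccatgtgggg
Tubb4b: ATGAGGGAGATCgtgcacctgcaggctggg
Tubb3: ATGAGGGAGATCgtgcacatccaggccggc
Tuba1b and Tuba1c were the same over all 30 bases, and Tubb3 and Tubb4b over their first 12.

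The last 33 bases of the reading frame, stop codon included, are given for Tuba1b, Tuba1c, Tuba4a and Tubb3, with the last codon before the stop in capitals.
Tuba1b: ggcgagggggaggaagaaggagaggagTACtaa
Tuba1c: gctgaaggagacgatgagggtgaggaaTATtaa
Tuba4a: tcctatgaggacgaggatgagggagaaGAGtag
Tubb3: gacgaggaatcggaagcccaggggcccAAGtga
Tuba1b and Tuba1c ended in a tyrosine codon and Tuba4a in a glutamate codon. The most abundant α-tubulin mRNA of these hearts therefore carried no codon for the final tyrosine. Reading frames of Tuba1a and Tuba1b were identical at 98.3% of aligned bases, those of Tuba1b and Tuba1c at 97.9%, those of Tuba1a and Tuba1c at 97.1% and those of Tubb2a and Tubb2b at 96.5%, while no other pair of members passed 85.9%. Of all stretches of 150 bases in the main transcript, 54.7% in Tuba1a, 57.9% in Tuba1b and 46.7% in Tuba1c occurred exactly in another gene's transcript. The share was 27.9% in Tubb2a, 20.1% in Tubb2b and 16.8% in Tubb4b, the last with the pseudogene Tubb4b-ps1. The division of counts among Tuba1a, Tuba1b and Tuba1c, and between Tubb2a and Tubb2b, is therefore uncertain. Tubb3, Tubb5, Tubb6 and Tuba4a shared no stretch of 150 bases, and Tubb3 none of 50.

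Levels are given as CPM, the count of a gene scaled to a column total of 1e6, and differences as log2 fold changes of HS against sham from edgeR's quasi-likelihood test with p-values adjusted by Benjamini-Hochberg over all 14717 genes tested. Each group had 3 hearts. No member passed an adjusted p of 0.05, which 9 genes in all, or 0.0612% of those tested, did. The α-tubulins were lower in every HS heart than in any sham heart, and so was Tubb4b among the β-tubulins. The other 4 tested β-tubulins overlapped between the groups, and Tubb3, at 2 to 9 counts in 5 hearts and 64 in the sixth, was below the filter on low counts, so that 9 of the 10 members were tested. p-values measure the spread between these 6 hearts alone, and in whole-tissue RNA fewer cells of a type cannot be told apart from less RNA per cell.

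**Figure D1:**
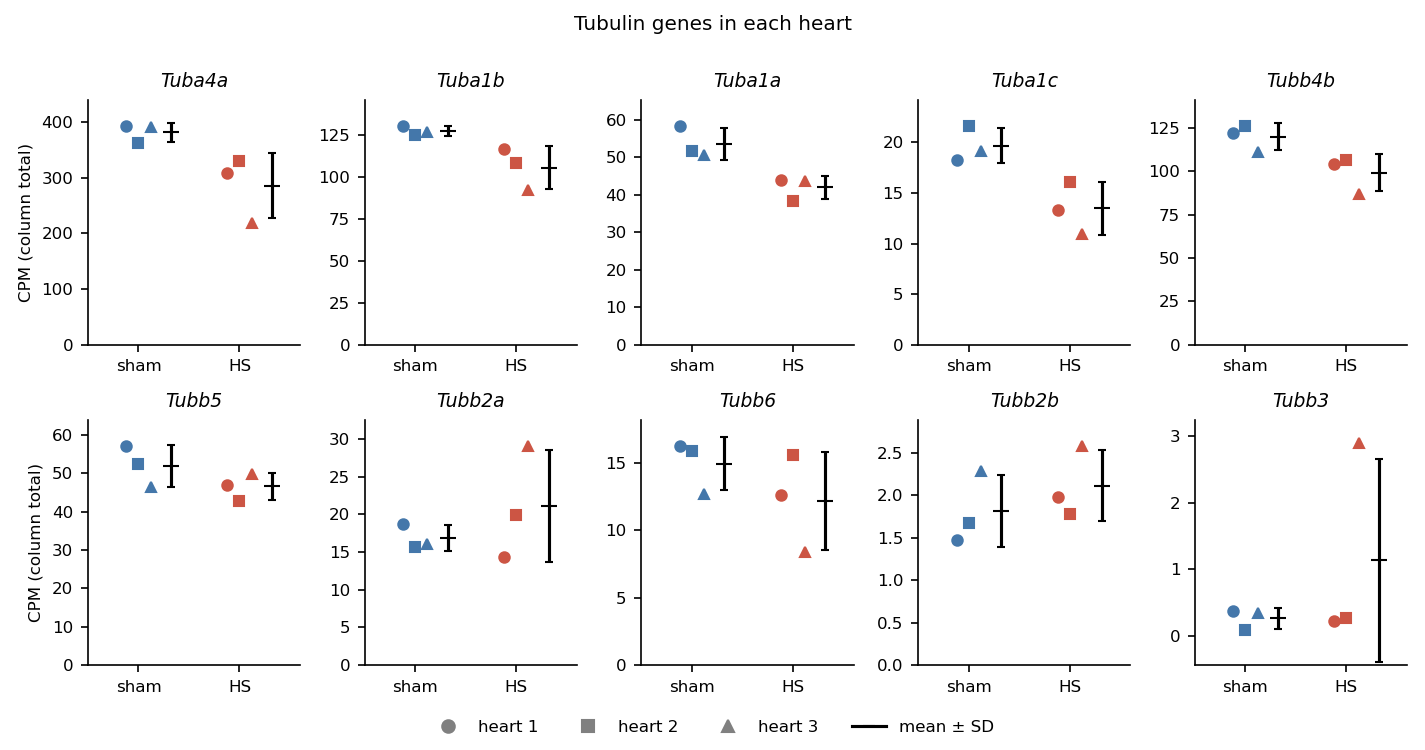
Level of each tubulin gene in each heart in CPM of the column total (linear axes, different for each gene). Coloured symbols are single hearts, blue for sham and red for HS, and black bars are the mean ± SD of 3 hearts. Every HS heart lies below every sham heart for the 4 α-tubulins and Tubb4b, and HS heart 3 stands at 2.90 CPM for Tubb3.

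Tuba4a, the α-tubulin made without a final tyrosine, is at chr1:75214228-75219865 on the minus strand. Its level was 393, 362 and 390 CPM in sham hearts 1 to 3 and 308, 330 and 219 CPM in HS hearts 1 to 3. The groups did not overlap, and HS heart 3 was the lowest. The mean was 382 ± 17.1 CPM in sham and 286 ± 58.7 CPM in HS hearts (SD, n = 3), and the log2 fold change was -0.38 (SE 0.12, edgeR adjusted p = 0.294). With HS heart 2 as the only HS heart it was -0.18. Per kilobase of transcript the groups overlapped, with 185 ± 9.80 CPM per kb in sham and 156 ± 33.2 in HS hearts (SD, n = 3), since HS heart 2 stood at 185.7.

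Tuba1b, a broadly expressed α-tubulin, is at chr15:98931425-98934565 on the minus strand. Its level was 130.4, 125 and 126 CPM in sham hearts and 117, 108 and 91.9 CPM in HS hearts. All HS hearts lay below all sham hearts. The log2 fold change was -0.23 (SE 0.08, edgeR adjusted p = 0.3).

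Tuba1a, the α-tubulin prominent in developing neurons, is at chr15:98949837-98953703 on the minus strand. Its level was 58.4, 51.6 and 50.5 CPM in sham hearts and 43.9, 38.4 and 43.6 CPM in HS hearts, again without overlap. Its lowest heart was HS heart 2, unlike that of the other α-tubulins. The log2 fold change was -0.30 (SE 0.11, edgeR adjusted p = 0.330).

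Tuba1c, close in sequence to the former pair, is at chr15:99029891-99038110 on the plus strand. Its level was 18.2, 21.6 and 19.2 CPM in sham hearts and 13.3, 16.1 and 10.9 CPM in HS hearts. The smallest unadjusted p of the 9 tested members was that of Tuba1c, with a log2 fold change of -0.51 (SE 0.14, edgeR adjusted p = 0.280). With HS heart 2 as the only HS heart it was -0.26. A gene named Gm49450, annotated across Tuba1a and Tuba1b on the same strand, held 0 to 63.2 counts per heart.

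Tubb4b, a broadly expressed β-tubulin also known from cilia, is at chr2:25222160-25224702 on the minus strand. Its level was 122, 126 and 111 CPM in sham hearts and 104, 106 and 87.1 CPM in HS hearts. The groups stood apart, with sham heart 3 and HS heart 2 the nearest pair. The log2 fold change was -0.23 (SE 0.09, edgeR adjusted p = 0.326), and with HS heart 2 as the only HS heart it was -0.14. Fam166a, which overlaps its end on the other strand, had at most 1 count.

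Tubb5, the most widely expressed β-tubulin of many tissues, is at chr17:35833921-35838306 on the minus strand. Its level was 57.2, 52.4 and 46.4 CPM in sham hearts and 47.1, 42.8 and 49.9 CPM in HS hearts. The groups overlapped, and the log2 fold change was -0.10 (SE 0.13, edgeR adjusted p = 0.730), from -0.23 without HS heart 3 to -0.04 without HS heart 2 when 1 heart was left out. Tubb6, the class V β-tubulin, is at chr18:67390717-67402749 on the plus strand. Its level was 16.3, 15.9 and 12.7 CPM in sham hearts and 12.6, 15.6 and 8.37 CPM in HS hearts. These groups overlapped too, with a log2 fold change of -0.25 (SE 0.20, edgeR adjusted p = 0.566), which was -0.10 without HS heart 3, -0.47 without HS heart 2 and 0.10 with HS heart 2 as the only HS heart.

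The class II β-tubulins, abundant in brain, had positive fold changes, with overlap between the groups. Tubb2a, at chr13:34074274-34078007 on the minus strand, stood at 18.8, 15.7 and 16.1 CPM in sham hearts and at 14.3, 19.9 and 29.0 CPM in HS hearts. HS heart 1 was the lowest of all 6 and HS heart 3 the highest. The log2 fold change was 0.40 (SE 0.30, edgeR adjusted p = 0.556), 0.01 without HS heart 3, 0.66 without HS heart 1 and 0.28 with HS heart 2 as the only HS heart. Tubb2b, at chr13:34126748-34130466 on the minus strand, stood at 1.48, 1.68 and 2.29 CPM in sham hearts and at 1.98, 1.78 and 2.58 CPM in HS hearts. Its groups overlapped, with a log2 fold change of 0.27 (SE 0.30, edgeR adjusted p = 0.705), which was 0.01 without HS heart 3 and -0.01 with HS heart 2 as the only HS heart.

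Of the 9 tested members, 7 had a log2 fold change below 0, against 48.7% of all genes tested. Lower levels in HS hearts at an unadjusted edgeR p under 0.05 were found for 5 of the 9 (Tuba1a, Tuba1b, Tuba1c, Tuba4a and Tubb4b), against 4.76% of all genes. Higher levels at that p were found for 0 members, against 8.83%, and 0 members had every HS heart above every sham heart, against 9.06%. Every HS heart lay below every sham heart for the same 5 members, against 11.0% of all genes on this scale, and for the same 5 against 10.9% on the TMM scale (TMM is edgeR's scaling to a common composition). The median log2 fold change was -0.34 over the 4 α-tubulins, -0.10 over the 5 tested β-tubulins and 0.01 over all genes tested. Of the other tools run, DESeq2 called 0 members, against 2.38% of all genes, and limma-voom 0, against 0.0544%. No member was called under any of the 17 alternatives tried.

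**Figure D2:**
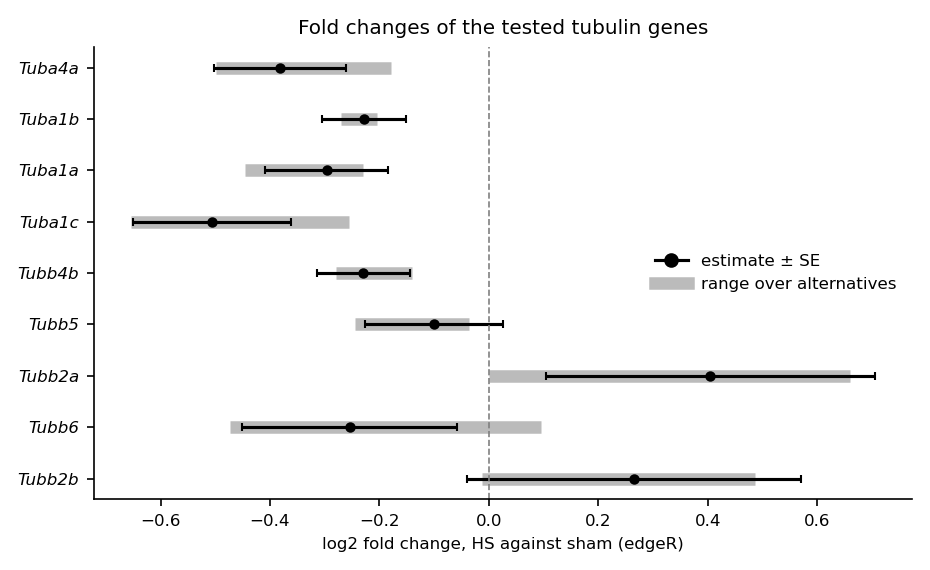
Log2 fold change of HS against sham for the 9 tested tubulin genes. Black points and bars are the edgeR estimate ± SE, with 3 hearts per group, and grey bars span the estimates under the 17 alternatives. Black and grey bars of the 4 α-tubulins and Tubb4b lie wholly below 0. For Tubb5 the grey bar lies below 0 but the black bar of ± SE crosses it. Grey bars of Tubb6 and Tubb2b cross 0, as does the black bar of Tubb2b, and the grey bar of Tubb2a ends at 0.

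Counts per heart of Tubb3, at chr8:123411424-123422015 on the plus strand, were 9, 2 and 8 in sham hearts, against 6, 7 and 64 in HS hearts. These equal 0.372, 0.0856 and 0.341 CPM in sham and 0.232, 0.275 and 2.90 CPM in HS hearts. HS heart 3 was the only heart with more than 9 counts, and the other HS hearts lay within the range of the sham hearts. The exact permutation test of the CPM, two-sided with 3 hearts per group, gave p = 0.6, where the smallest p it allows is 0.1. In edgeR without a filter the log2 fold change was 2.15 (adjusted p = 0.654). A level of 3 counts, the limit that a count of 0 allows, equals 0.116 to 0.136 CPM in these libraries, and such limits cover counting error only. All counts of Tubb3 stood on the full-length transcript Tubb3-201 and none on Tubb3-202. Mc1r, the gene directly before it on the same strand, had 0 to 1 counts. Def8, the gene after it, stood at 19.1 CPM in HS heart 3 and at 32.2 to 35.3 CPM in the other 5 hearts. Gm20388, annotated on the same strand across all 10592 bases of Tubb3, is absent from the estimated counts. The part of neighbouring genes in the Tubb3 level was not tested.

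HS heart 3 also stood above the other hearts in neuron markers. The summed level of the 14 neuron markers was 8.77 to 9.59 CPM in sham hearts and 9.48, 7.10 and 38.3 CPM in HS hearts 1 to 3. Snap25, of the machinery that releases synaptic vesicles, had 0 counts in every sham heart, and its HS hearts stood at 0.0387, 0 and 5.79 CPM. Syt1, the calcium sensor of that release, likewise had 0 counts in every sham heart, and its HS hearts stood at 0.0774, 0 and 3.57 CPM. Nefl, a neurofilament subunit, stood at 3.53 CPM in HS heart 3, and its next highest heart was sham heart 3 at 0.213 CPM. Prph, the intermediate filament of peripheral neurons, stood at 1.99 CPM in HS heart 3 and at 0.0387 to 0.0428 CPM elsewhere. Th and Chat, enzymes that make the transmitters of sympathetic and parasympathetic neurons, were at 0 in 5 hearts and at 0.181 and 0.226 CPM in HS heart 3. Dbh, also of sympathetic neurons, did not follow, at 1.07 to 1.40 CPM in sham and 0.387, 1.26 and 1.31 CPM in HS hearts. Of the 14 markers, 4 passed the filter on low counts, and 0 of these were called. The summed level of 8 Schwann cell markers was 11.6 to 13.9 CPM in sham hearts and 20.2, 10.8 and 31.5 CPM in HS hearts. The part of nerve cells in the Tubb3 level was not tested.

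**Figure D3:**
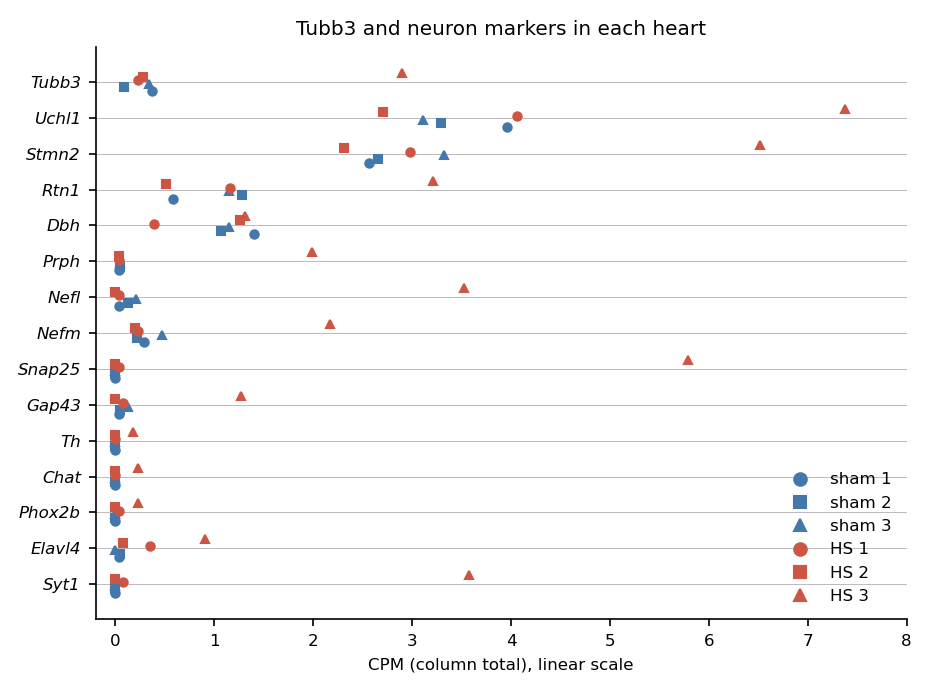
Level of Tubb3 and of the 14 neuron markers in each heart in CPM of the column total (linear axis). Symbols are single hearts, blue for sham and red for HS. HS heart 3 (red triangle) is the highest heart for 13 of the 14 markers and for Tubb3, and Dbh is the exception.

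As a description with no test, the tested genes whose log2 CPM followed Tubb3 most closely over the 6 hearts were Gtf3c2, Cited2, Serpina3n, Crybg1 and Piga, with Pearson r from 0.994 to 0.998. Each of them was highest in HS heart 3, and Cited2 stood at 34.5 CPM there against 13.3 to 19.4 CPM in the others. Among the members, Tubb2a followed it most closely, with r = 0.91. Among the genes most like Tuba1c were Rapsn, Tmem11, Rftn1 and Asb5, with r from 0.98 to 0.99, and among the members Tubb4b, with r = 0.95. With 6 hearts of shared depth and composition such values describe these libraries only.

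The members were also summed into an α and a β pool. The α pool was 600.1, 560.3 and 586 CPM in sham hearts and 482, 492 and 365 CPM in HS hearts. All HS hearts lay below all sham hearts, with means of 582 ± 20.3 and 447 ± 70.5 CPM (SD, n = 3). This was a change of -23.3% (exact permutation test, two-sided, p = 0.1, the smallest p that 3 hearts against 3 allow). On the TMM scale it was -21.2%, again without overlap, and without HS heart 3 the log2 ratio was -0.26 in place of -0.38. The β pool was 216, 212 and 189 CPM in sham hearts and 180.4, 187 and 179.9 CPM in HS hearts, a change of -11.4% (exact permutation p = 0.1, n = 3). Here the nearest hearts were sham heart 3 and HS heart 2, and on the TMM scale the groups overlapped, with a change of -8.07% (exact permutation p = 0.2, n = 3). All members together took 0.0772 to 0.0816% of counts in sham and 0.0545 to 0.0679% in HS hearts.

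The ratio of the α to the β pool, in counts per kilobase, was 2.67, 2.49 and 2.88 in sham hearts, against 2.68, 2.75 and 2.07 in HS hearts. The groups overlapped (exact permutation p = 0.7, n = 3), and HS heart 3 was the lowest. In plain counts the ratio was 2.77, 2.64 and 3.10 in sham and 2.67, 2.64 and 2.03 in HS hearts (exact permutation p = 0.2, n = 3). With all annotated α- and β-tubulins in the pools, the count ratio was 3.44, 3.26 and 3.61 in sham hearts, against 3.19, 3.25 and 2.51 in HS hearts, without overlap (exact permutation p = 0.1, n = 3), whereas per kilobase these groups overlapped (exact permutation p = 0.6, n = 3). Whether the ratio stood apart thus turned on the scale and on which genes were summed.

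Within the α pool the share of Tuba4a was 65.5, 64.6 and 66.6% in sham hearts, against 63.9, 67.0 and 59.9% in HS hearts. Tuba1b held 21.6 to 22.3% in sham and 21.9 to 25.1% in HS hearts, Tuba1a 8.61 to 9.72% and 7.79 to 11.9%, and Tuba1c 3.04 to 3.86% and 2.77 to 3.28%. Tuba4a was thus the main α-tubulin in all 6 hearts, with its smallest share in HS heart 3. Within the β pool the share of Tubb4b was 56.5, 59.5 and 58.8% in sham hearts, against 57.7, 56.9 and 48.4% in HS hearts. Tubb2a held 8.67, 7.40 and 8.50% in sham and 7.91, 10.7 and 16.1% in HS hearts. HS heart 3 again differed from the other hearts, with less Tubb4b and more Tubb2a. Tubb5 held 24.5 to 26.4% in sham and 22.9 to 27.7% in HS hearts, Tubb6 6.72 to 7.52% and 4.65 to 8.36%, and Tubb2b 0.683 to 1.21% and 0.951 to 1.44%. The share of Tubb3 was 0.172, 0.0404 and 0.180% in sham hearts, against 0.129, 0.147 and 1.61% in HS hearts, the smallest of the pool except in HS heart 3, where that of Tubb2b was smaller. For 0 of the 10 shares did the groups stand apart, and the exact permutation p, adjusted over the 10 shares, ran from 0.6 to 1. Per kilobase 1 share did, that of Tuba1c, at 3.51 to 4.65% in sham and 2.97 to 3.34% in HS hearts (exact permutation p = 0.1, adjusted p = 0.75, n = 3).

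**Figure D4:**
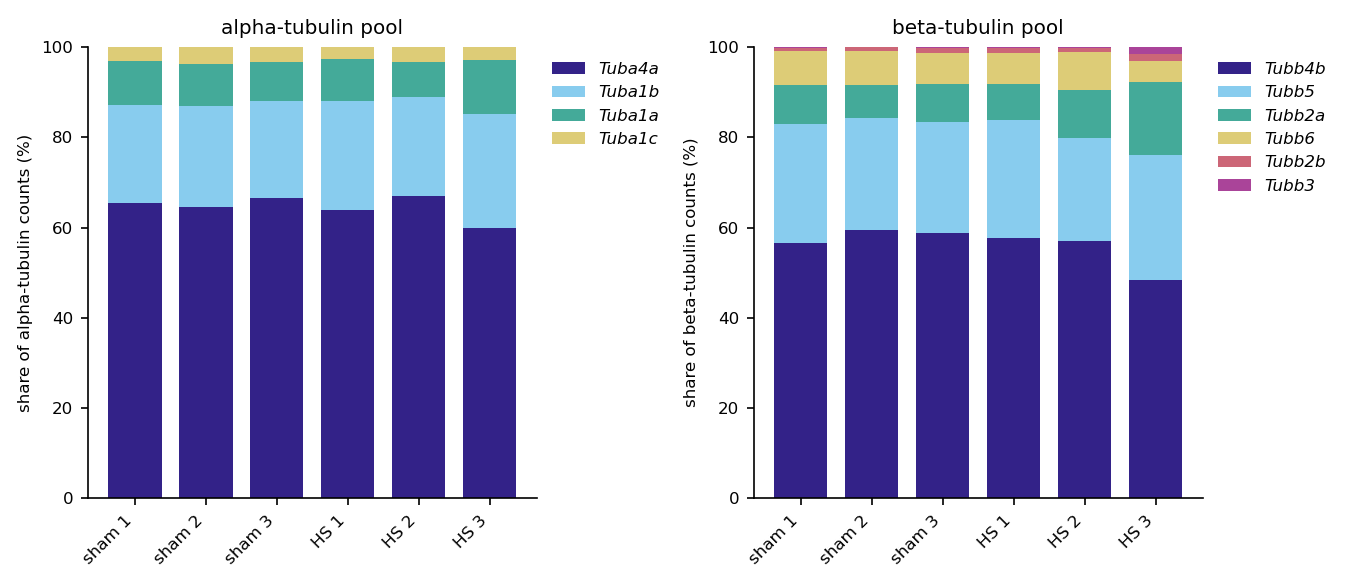
Share of each member in the counts of the α-tubulin members (left) and of the β-tubulin members (right), in percent, for each of the 6 hearts. Tuba4a holds 59.9 to 67.0% of the α pool and Tubb4b 48.4 to 59.5% of the β pool, and the Tubb2a and Tubb3 segments are largest in HS heart 3.

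Per kilobase of transcript, the mean levels in sham hearts were 185 CPM per kb for Tuba4a, 80.0 for Tuba1b, 75.3 for Tubb4b, 29.7 for Tuba1a and 19.8 for Tubb5. They were 12.4 for Tuba1c, 10.5 for Tubb2a, 8.52 for Tubb6, 0.832 for Tubb2b and 0.142 for Tubb3. Neighbours in this order whose ranges over the 3 sham hearts overlapped were Tuba1b with Tubb4b, Tuba1c with Tubb2a, and none other. The order by means was the same in HS hearts down to Tubb5, and below it Tubb2a, at 13.1 CPM per kb, stood above Tuba1c, at 8.11.

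The transcripts of Tuba4a did not follow each other, an observation made after the values were seen. Tuba4a-202, of 2840 bases, stood at 249, 245 and 282 CPM in sham hearts and at 179, 174 and 106 CPM in HS hearts. The groups were far apart, and the log2 fold change was -0.74 (SE 0.17, edgeR over 30933 transcripts, adjusted p = 0.291). Tuba4a-206, of 1205 bases, stood at 55.1, 54.3 and 62.9 CPM in sham and at 56.4, 72.2 and 47.4 CPM in HS hearts, with overlap. As a share of all Tuba4a counts, Tuba4a-202 took 63.4, 67.8 and 72.2% in sham and 58.0, 52.8 and 48.5% in HS hearts (exact permutation p = 0.1, n = 3). Tuba4a-206 took no more than 16.1% in any sham heart and 18.3, 21.9 and 21.6% in HS hearts (exact permutation p = 0.1, n = 3). The retained-intron transcript Tuba4a-205 took 4.25 to 6.12% in sham and 7.06 to 9.45% in HS hearts, without overlap. Tuba4a-201 took 7.37 to 16.4% and 15.7 to 22.6%, with overlap. The longer Tuba4a-202 runs to the end of the gene, where 1379 bases of the gene span overlap Stk16 on the other strand. Tuba4a-201 also runs into that overlap, and its log2 fold change was 0.18 (edgeR adjusted p = 0.865). Tuba4a-206 stops short of it. The part of this overlap in the transcript values was not tested. Stk16, a serine/threonine kinase, stood at 15.4, 14.9 and 13.3 CPM in sham and 13.4, 13.0 and 10.5 CPM in HS hearts (log2 fold change -0.20, edgeR adjusted p = 0.444). How the counting treated the strand is not stated in the sources read, so reads in that overlap may have been counted for either gene.

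**Figure D5:**
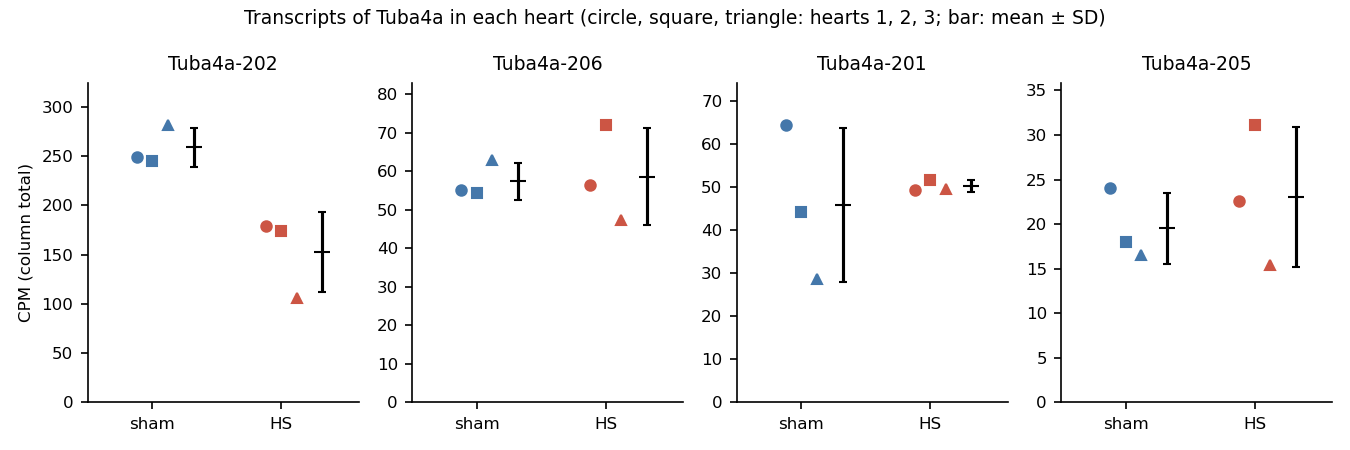
Level of the 4 transcripts that hold nearly all Tuba4a counts, in each heart, in CPM of the column total (linear axes from 0, different for each transcript). Symbols are single hearts, blue for sham and red for HS, and black bars are the mean ± SD of 3 hearts. Tuba4a-202 lies at 245 to 282 CPM in sham and 106 to 179 CPM in HS hearts, and the other 3 transcripts overlap.

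Tested one by one, 0 of the 15 member transcripts that passed the filter had an adjusted p under 0.05 in edgeR, against 0.0226% of all transcripts. At an unadjusted p under 0.05, 6 were lower in HS hearts, against 3.88% of all transcripts, and 0 were higher, against 5.73%.

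Of the 10 other tubulin genes, 6 passed the filter. In either direction, 0 of these passed an adjusted p of 0.05, against 0.0612% of all genes tested. At an unadjusted p under 0.05, 0 did, against 13.6%, and 6 genes are few for such a share. The median log2 fold change was -0.12. Tuba8, the α-tubulin of heart, muscle and testis, was the most abundant of them, at 151, 136 and 101 CPM in sham and 101, 120 and 93.3 CPM in HS hearts (log2 fold change -0.26, edgeR adjusted p = 0.483, and a log2 fold change of -0.15 without sham heart 1 and -0.40 without sham heart 3). With all annotated α-tubulins in the pool it held 14.7 to 20.1% of counts in sham and 17.3 to 20.3% in HS hearts. Tubb4a, a β-tubulin of brain, stood at 1.41 to 1.73 CPM in sham and 1.53 to 2.28 CPM in HS hearts, and Tubd1 (δ-tubulin, of centrioles) at 4.30 to 5.48 and 3.21 to 4.94 CPM. Both overlapped between the groups in CPM. As a share of all annotated β-tubulin counts, Tubb4a held 0.738 to 0.795% in sham and 0.813 to 1.25% in HS hearts, without overlap. The exact permutation p was 0.1, or 0.686 adjusted over the shares of both annotated pools (n = 3). Tubb1, the β-tubulin of platelets and megakaryocytes, had 3, 0 and 0 counts in sham and 3, 1 and 25 counts in HS hearts, highest in the same heart as Tubb3.

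Newly made tubulin is folded with the help of prefoldin and the tubulin cofactors and assembled with the GTPase Arl2. Of 13 such genes, all tested, 0 passed an adjusted p of 0.05 in either direction. At an unadjusted p under 0.05, 3 were lower, against 4.76% of all genes tested, and 0 higher, against 8.83%. A log2 fold change below 0 was found for 10 of them, against 48.7% of all genes, with a median of -0.15. Arl2, which acts with cofactors D and E, stood at 17.1, 17.5 and 17.1 CPM in sham and 15.0, 13.1 and 11.8 CPM in HS hearts (log2 fold change -0.33, edgeR adjusted p = 0.284). Pfdn1, a prefoldin subunit, stood at 36.9, 35.9 and 35.3 CPM in sham and 30.0, 31.8 and 26.1 CPM in HS hearts (log2 fold change -0.25, edgeR adjusted p = 0.311). Pfdn4, another subunit, had a log2 fold change of -0.38 (edgeR adjusted p = 0.352). These 3, chosen by their small p, were lower in every HS heart than in any sham heart, as were 11.0% of all genes. So were Tbcc, Tbca and Vbp1 of the same list. Ttc5, which reads the first residues of nascent tubulin, stood at 7.51, 8.56 and 7.71 CPM in sham and at 7.35, 7.22 and 4.12 CPM in HS hearts (log2 fold change -0.32, edgeR adjusted p = 0.484), and without HS heart 3 the log2 fold change was -0.15.

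Of 21 genes of enzymes that modify tubulin, 17 were tested and 0 passed an adjusted p of 0.05 in either direction. At an unadjusted p under 0.05, 2 were lower, against 4.76% of all genes tested, and 0 higher, against 8.83%. Their median log2 fold change was -0.04. Ttll12, of the tubulin tyrosine ligase-like family, had a log2 fold change of -0.55 (edgeR adjusted p = 0.318), and Agbl3, a carboxypeptidase that removes glutamates, -0.64 (edgeR adjusted p = 0.345). Both, chosen by their small p, were lower in every HS heart than in any sham heart, as were 11.0% of all genes. Ttll1, a polyglutamylase, had a log2 fold change of -0.31 with overlap between the groups (edgeR adjusted p = 0.487), which was -0.15 without HS heart 3 and -0.55 without HS heart 2.

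Of 27 genes of proteins that bind microtubules or their tips, 26 were tested, and 0 passed an adjusted p of 0.05 in either direction. At an unadjusted p under 0.05, 3 were higher, against 8.83% of all genes tested, and 0 lower, against 4.76%. The median log2 fold change was 0.11. Map1b, which stabilises microtubules in growing axons, stood at 12.0, 13.5 and 13.3 CPM in sham and 35.2, 15.4 and 58.1 CPM in HS hearts. HS heart 2 was close to the sham hearts, and the log2 fold change was 1.57 (edgeR adjusted p = 0.295). DESeq2 gave an adjusted p of 0.0113, with 351 genes called in all, and edgeR without HS heart 2 gave 0.0311, with 287 called. Leaving out the HS heart closest to the sham hearts widens the difference, for Map1b as for Map1a, so those p-values add no support. Without HS heart 3 the log2 fold change was 0.93 (edgeR adjusted p = 0.337), and with HS heart 2 as the only HS heart 0.28. Map1a, its relative in mature neurons, stood at 4.30 to 6.44 CPM in sham and 11.7, 5.26 and 15.4 CPM in HS hearts (log2 fold change 1.16, edgeR adjusted p = 0.321, and 0.0456 without HS heart 2), and without HS heart 3 the log2 fold change was 0.70. Camsap2, which caps minus ends, stood at 29.7 to 32.5 CPM in sham and 34.7 to 40.5 CPM in HS hearts (log2 fold change 0.31, edgeR adjusted p = 0.336, and a log2 fold change of 0.18 without HS heart 3). Stmn2 stands on both this list and that of the neuron markers.

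Total counts ran from 22098531 to 25855918 per heart. As a check of the labels, 5 of 5 heat shock genes were higher in every HS heart, against 9.06% of all genes tested. Of them, 3 (Hspa1a, Hspa1b and Dnajb1) had an edgeR adjusted p under 0.05, against 0.0612%. Marker sums of other cells differed among the HS hearts. For smooth muscle with pericytes (8 markers), the sum lay above the sham range in every HS heart. It was 1092 to 1142 CPM in sham and 1407, 1244 and 1388 CPM in HS hearts 1 to 3. Of its markers, Acta2 lay above the sham range in every HS heart and Kcnj8 below it. In HS heart 2, Abcc9 also lay above the sham range, and Cnn1, Myh11, Tagln, Smtn and Rgs5 lay within it. The summed level of 7 atrial cardiomyocyte markers was 88.8 to 112 CPM in sham and 4037, 133 and 2529 CPM in HS hearts, and that of 10 fibroblast markers 1078 to 1346 and 2150, 1336 and 3131 CPM. The 8 ventricular cardiomyocyte markers summed to 38799 to 40460 CPM in sham and 42737, 43464 and 30492 CPM in HS hearts, and the 8 of leukocytes and macrophages to 199 to 248 and 205, 212 and 169.7 CPM. Mitochondrial ribosomal RNA took 1.67 to 1.69% of counts in sham and 2.75, 3.16 and 5.55% in HS hearts. The lower levels of the 4 α-tubulins and Tubb4b were present in HS heart 2. Its fibroblast sum lay within the sham range and its atrial sum a little above it. Of that atrial sum of 133 CPM, Nppa held 131 CPM. Myl7 and Myl4, at 0.157 and 0.942 CPM in HS heart 2, lay within the sham range. The ventricular sum, the smooth muscle sum and the share of mitochondrial ribosomal RNA in that heart were also above the sham range. The ventricular markers did not move together. Myh6 stood at 19122 CPM in HS heart 2, against 14417 to 15027 CPM in sham hearts. Myl2 stood at 5688 CPM there, against 6160 to 6828 CPM in sham hearts. Myl2, Myl3 and Tnni3 were lower in every HS heart than in any sham heart, as were 11.0% of all genes. With HS heart 2 as the only HS heart, the log2 fold changes of Tuba4a, Tuba1c and Tubb4b were smaller, as given above. Those of Tuba1b and Tuba1a were then -0.20 and -0.45. The part of cell makeup in the lower levels was not tested.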

How the data were processed

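Poly(A)-selected, strand-keeping libraries of 6 hearts were sequenced, 1 per heart. Reads had been cleaned (fastp) and aligned (Hisat2) by the authors, whose deposited file holds estimated counts of each transcript without scaling for depth or length. mm10 is the build named in the submitters' notes. Which program and annotation gave the transcript counts, and whether strand was used, is not given in the sources used here.

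Estimated counts were summed per gene ID. CPM used the column totals, and levels per kilobase divided each transcript's count by its vM21 length. For tests, sums were rounded to whole numbers, filtered with filterByExpr (minimum count 10, minimum total 15) and scaled by TMM, with factors from 0.892 (HS heart 3) to 1.07 (HS heart 1). The main test was the robust quasi-likelihood test of edgeR 4.0.16 with group as the only term and Benjamini-Hochberg adjustment, checked on simulated counts. Pool sums and shares were compared by exact permutation. Alternatives were other normalizations and filters, DESeq2 1.42.0, limma-voom 3.58.1 without and with quality weights, no robust estimation, a replicate block and each heart left out in turn. Leaving out HS hearts 1 and 3 together was chosen after seeing the data. R 4.3.3, Python 3.11.15 and matplotlib 3.10.9 were used.

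The members, gene lists and markers were chosen with earlier results of these data known. Named genes were all members, up to 3 genes of each related list with the smallest p or those called, and the 5 genes most like Tubb3 and like the member with the smallest p by Pearson r. A sequence and a gene that this rule would name are not reported here.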

Additional observations from a re-analysis of the deposited data

How the results depend on the processing

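With 3 hearts per group and 17 alternatives, the count of members called was 0 throughout, while the count of all genes called moved. It was 9, and 16 with column totals only, 84 without a filter, 4 with at least 10 counts in every heart, 351 in DESeq2, 49 in limma-voom with quality weights, 129 without HS hearts 1 and 3 and from 2 to 287 when 1 heart was left out. The count of shares that stood apart was 0, and 1 per kilobase and from 0 to 3 when 1 heart was left out. Without HS hearts 1 and 3 the log2 fold change turned to -0.012 for Tubb2b, 0.10 for Tubb6, -0.0081 for Tubb4a, 0.011 for Tubd1 and 0.059 for Ttll1. That of Dnajb2, a neighbour of Tuba4a, turned from 0.13 to -0.013 in limma-voom with quality weights, and that of Ptprn, another neighbour, from 0.39 to between -0.0032 and 0.70 when 1 heart was left out. The cause was not tested. Of 442 alternative values for named genes, 429 kept their direction and side of the threshold, 6 passed the threshold (Map1b, Map1a and Tubgcp4) and 7 turned.

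The replicate numbers shared by the groups were not used to pair the hearts in the main test. Correlations of same-numbered hearts, around their group means, were -0.06, 0.13 and 0.01. Sham hearts 2 and 3 correlated most with the HS heart of the same number, and sham heart 1 with HS heart 3. With 3 hearts per group such values cannot exclude a pairing. With the replicate block 9 genes and 0 members were called, and the log2 ratio was -0.39 for the α pool and -0.17 for the β pool (exact sign-flip p = 0.25 for both, the smallest that 3 pairs allow). Depth limits Tubb3 and Tubb2b most, and counts of near-identical members depend on how reads were divided.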

Other observations

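The γ-tubulin complex, from which microtubules grow, was looked at after the values were seen. Tubgcp4, one of its subunits, stood at 13.0, 9.63 and 11.6 CPM in sham hearts 1 to 3 and at 14.8, 35.9 and 34.8 CPM in HS hearts 1 to 3. The groups did not overlap, with HS heart 1 near the sham hearts and the other 2 well above them. The log2 fold change was 1.40 (SE 0.38, edgeR adjusted p = 0.273), and DESeq2 gave an adjusted p of 0.00731. Without HS heart 1, edgeR gave an adjusted p of 0.0224, with 18 genes called in all. Leaving out the HS heart nearest to the sham hearts widens the difference, so that p adds no support. Tubgcp2, Tubgcp3, Tubgcp5 and Tubgcp6, the other subunits of that kind, overlapped between the groups, with log2 fold changes from -0.23 to 0.14. On the other strand, Tubgcp4 overlaps Trp53bp1 by 5490 bases and Zscan29 by 472 bases. Trp53bp1 stood at 22.6, 21.8 and 24.9 CPM in sham and at 27.7, 33.2 and 21.1 CPM in HS hearts. The part of either overlap in the Tubgcp4 level was not tested. Zscan29, a zinc finger gene, stood at 7.51, 8.34 and 8.40 CPM in sham and at 21.0, 31.4 and 22.1 CPM in HS hearts (log2 fold change 1.67, edgeR adjusted p = 0.0421).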
